A study of Mus musculus with 3 samples.

Results

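The genes described here carry names from families of the axoneme, of cilia and flagella and of accessory structures of the sperm tail. Some are known from airway cilia or centrioles. They are all genes whose symbol begins with *Dnah*, *Dnaic*, *Dnali*, *Rsph*, *Cfap*, *Tekt* or *Odf* followed by a number, without pseudogenes and antisense transcripts, and they were chosen by name and not by level. The rule found 69 genes among the 33447 genes of the table of Tomato-negative cells and the same 69 among the 29872 genes of the control table. They were 31 *Cfap*, 15 *Dnah*, 8 *Rsph*, 7 *Odf*, 5 *Tekt*, 2 *Dnaic* genes and 1 *Dnali* gene. All 69 had at least 20 counts over the germ cells of each library, the number needed to assign a stage.

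Droplet single-cell counts of mouse testis were available for 3 libraries, each 1 library pooled from 3 mice, so that there are no replicates, no test across samples was possible, and every interval below is a 95% interval for counting error only. The Tomato-negative library came from *Ddx4-creER; R26tdTomato* mice with an age of 8 weeks by the labels, 4 weeks after tamoxifen had switched on a red protein in germ cells expressing *Ddx4*, and the red cells were removed by flow cytometry to enrich somatic cells. The cKO library came from *Amh-cre; Scf fl/fl* mice, which lose stem cell factor in Sertoli cells, where *Amh* drives Cre, and the control library from *Scf fl/fl* mice, which carry the floxed allele without Cre. Both were 6 weeks old and were depleted of haploid cells. The mice were C57BL/6, and age, genotype and sorting differ between the Tomato-negative and the control library and cannot be told apart.

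The axoneme is a ring of microtubule doublets around a central pair. Outer and inner dynein arms on the doublets make them slide, radial spokes and the central pair pass on the signals that turn sliding into a beat, and tektins are filaments inside the doublets. In sperm, outer dense fibres and a fibrous sheath surround the axoneme. A spermatid begins to grow its flagellum soon after meiosis, and transcription ends as its nucleus condenses.

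Germ cells made up 3519 of the 5087 Tomato-negative cells and 4993 of the 5976 control cells that were kept. They were placed in 6 stages by clustering without the 69 genes, with names given from marker genes, so that each class name stands for cells that are like that class. The Tomato-negative library held 428 undifferentiated spermatogonia, 1325 differentiating spermatogonia, 786 early prophase spermatocytes, 513 pachytene and later spermatocytes, 193 round spermatids and 274 elongating spermatids, against 369, 1762, 1462, 996, 247 and 157 in the control library. The libraries filled some stages from different clusters: 472 of the 513 Tomato-negative pachytene cells were in 1 cluster that held only 17 control cells. Kept cells held 88079827 UMIs (median 10223 per cell) in the Tomato-negative library and 79288982 (median 5910) in the control library. Levels are counts of a gene scaled to all UMIs of its class (CPM), and since each 3′ transcript end is counted once, they were not divided by gene length.

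Promoter sequences (RefSeq, GRCm38.p6, 250 bases before to 50 after each annotated start) were matched by symbol for 57 of the 69 genes. In these windows, searched on both strands, the X-box bound by RFX factors of ciliated cells (GTTGCC, 3 free bases, G, 1 free base and AAC) was found for 3 of 57 genes (5.26%), against 0.503% of all 27025 genes with a promoter. The shorter X-box part (GTTGCCAT) was found for 5 genes (8.77%, against 1.54%). It overlaps the X-box of *Cfap44*, and its other matches were in *Cfap74*, *Cfap97d2*, *Cfap161* and *Tekt1*. The MYB site (TAACGG), bound by A-MYB in pachytene cells, was found for 6 genes (10.5%, against 3.15%), of which 5 were highest in pachytene spermatocytes. The cyclic AMP element (TGACGTCA) was found for 1 gene, *Dnah6* (1.75%, against 2.03%), and freeing 1 base of it (TGACGTNA, which includes every full element) added no gene (1.75%, against 3.36%). These counts describe letters in a window and carry no test. The stretches around the 3 X-boxes and around the MYB sites of the 3 genes with the highest levels among those with one are printed 5′ to 3′ on the gene's strand, with the motif in capitals, because they carry the few matches that stand behind these shares.
*Cfap298*, minus strand, chr16:90934984-90935077, X-box starting 188 bases before the start: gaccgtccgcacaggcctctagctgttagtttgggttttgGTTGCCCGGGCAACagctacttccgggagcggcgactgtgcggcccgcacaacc
*Cfap44*, plus strand, chr16:44394732-44394825, X-box starting 27 bases before the start and read on the other strand: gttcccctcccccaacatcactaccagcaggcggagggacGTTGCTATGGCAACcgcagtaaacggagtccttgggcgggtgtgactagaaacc
*Tekt4*, plus strand, chr17:25471550-25471639, X-box at the start itself and read on the other strand: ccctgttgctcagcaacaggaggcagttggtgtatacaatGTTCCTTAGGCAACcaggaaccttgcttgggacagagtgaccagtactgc
*Odf2*, plus strand, chr2:29890049-29890112, MYB site starting 26 bases after the start: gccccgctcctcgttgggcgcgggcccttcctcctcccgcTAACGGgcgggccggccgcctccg
*Dnah14*, plus strand, chr1:181576561-181576642, MYB site starting 8 bases after the start and read on the other strand: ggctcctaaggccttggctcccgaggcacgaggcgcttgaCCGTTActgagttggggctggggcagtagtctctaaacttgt
*Rsph6a*, plus strand, chr7:19054654-19054736, MYB site starting 7 bases after the start: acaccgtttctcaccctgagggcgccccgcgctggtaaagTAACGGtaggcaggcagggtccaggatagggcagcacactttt

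Taken as a sum, the 69 genes were a small share of the transcripts of spermatogonia and a large one from the pachytene stage on. In the Tomato-negative library they held 0.113% (0.111 to 0.115) of the UMIs of undifferentiated spermatogonia, 0.11% of differentiating spermatogonia and 0.121% of early prophase spermatocytes. Their share was 1.67% (1.67 to 1.68) in pachytene and later spermatocytes, 1.5% in round spermatids and 0.644% (0.635 to 0.654) in elongating spermatids. The control library gave 0.0995%, 0.0991%, 0.178%, 1.64%, 1.5% and 0.833% for the same stages. Both libraries therefore stepped up between early prophase and pachytene cells, and the control share was higher than the Tomato-negative one in elongating cells. It was also higher in early prophase, but that order turned without doublets (0.194% Tomato-negative, 0.179% control) and with germ cell clusters at resolution 0.6 (0.188% and 0.18%). In these settings the Tomato-negative early prophase class held only 87 and 74 cells, in place of 786, and the control class 1513 and 1352. The turned order therefore rests on a much smaller Tomato-negative class. Beside the elongating value stands the weight of *Prm1*, *Prm2*, *Tnp1* and *Tnp2*, which encode the proteins that pack the sperm nucleus and together held 194210 CPM of Tomato-negative and 173247 CPM of control elongating spermatids.

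**Figure D1:**
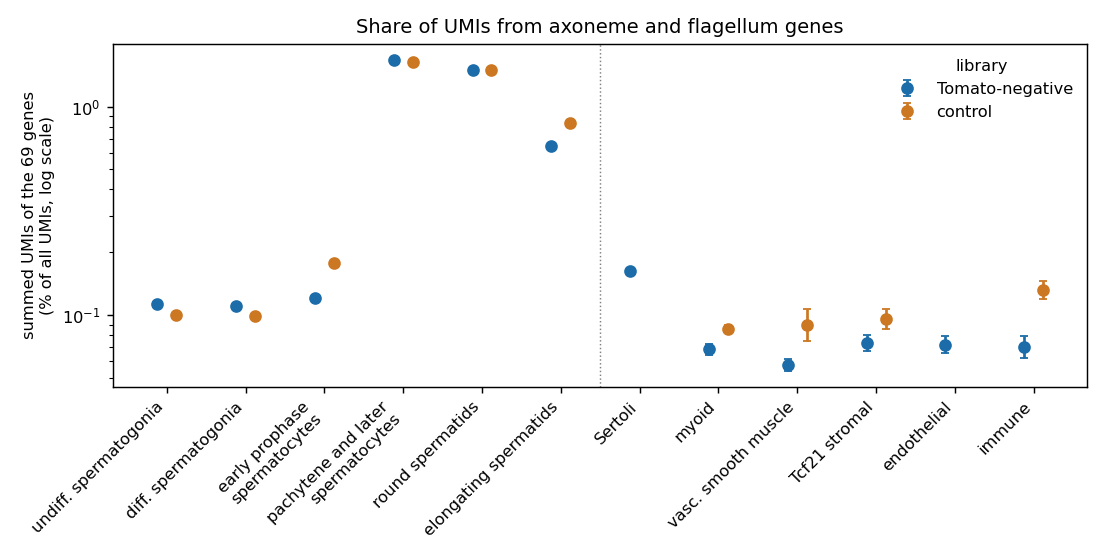
Summed UMIs of the 69 genes as a percent of all UMIs of each class (log scale), in Tomato-negative (blue) and control (orange) cells. Bars are exact Poisson intervals, the dotted line separates germ cell stages from somatic classes, and the shares of 1.67% and 1.64% in pachytene and later spermatocytes stand above the values of spermatogonia and of every somatic class.

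Of the 69 genes, 35 were highest in pachytene and later spermatocytes, 22 in round and 9 in elongating spermatids of the Tomato-negative library. Early prophase spermatocytes had 1, undifferentiated spermatogonia had 2, and differentiating spermatogonia had none. In the control library the numbers were 33 for pachytene, 24 for round, 8 for elongating, 1 for early prophase and 3 for undifferentiated cells. Among all genes with at least 20 germ cell counts, pachytene cells were the highest stage of 17.5% (Tomato-negative) and 18.3% (control), round spermatids of 11.4% and 14.9%, and elongating spermatids of 15.9% and 12.6%. For undifferentiated spermatogonia the background was 22.1% and 20.8%, for differentiating spermatogonia 15.5% and 15.7%, and for early prophase 17.6% in each library. So the pachytene and round stages held more of these genes than of genes at large in both libraries, and the elongating stage did not. Spermatids of both kinds held 31 genes in the Tomato-negative library (background 27.3%) and 32 in the control library (27.5%).

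**Figure D2:**
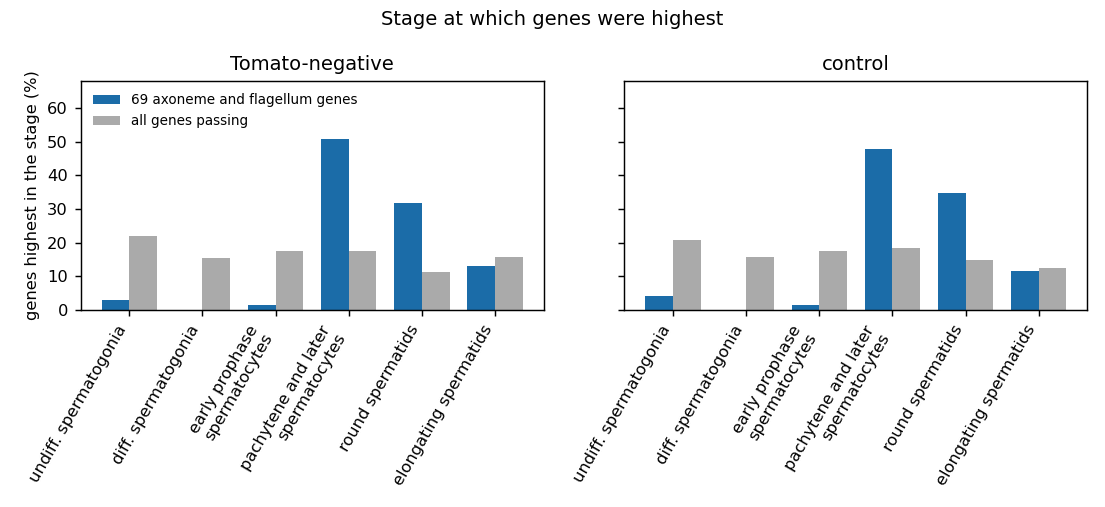
Percent of genes that were highest in each germ cell stage, for the 69 axoneme and flagellum genes (blue) and for all genes with at least 20 germ cell counts (grey), in the Tomato-negative (left) and control (right) library. The blue bars stand above the grey ones in pachytene cells (35 and 33 genes) and in round spermatids (22 and 24 genes).

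The stage was the same in both libraries for 66 of the 69 genes, where 77.5% of all genes with enough counts had the same one. The exceptions were *Odf4* and *Rsph9*, with pachytene and round spermatid levels close to each other, and *Dnah5*, which had few counts. *Rsph9*, of the spoke head, had 268 CPM (262 to 273) in pachytene and 250 CPM (240 to 261) in round cells of the Tomato-negative library, and 244 CPM (239 to 249) and 252 CPM (242 to 263) in the control library. The highest stage stood above the next beyond counting error for 57 Tomato-negative and 61 control genes, and by at least 2-fold for 21 and 36. The median of this ratio was 1.62 in the Tomato-negative and 2.02 in the control library. These values were not computed over all genes, so they are not set against genes at large.

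**Figure D3:**
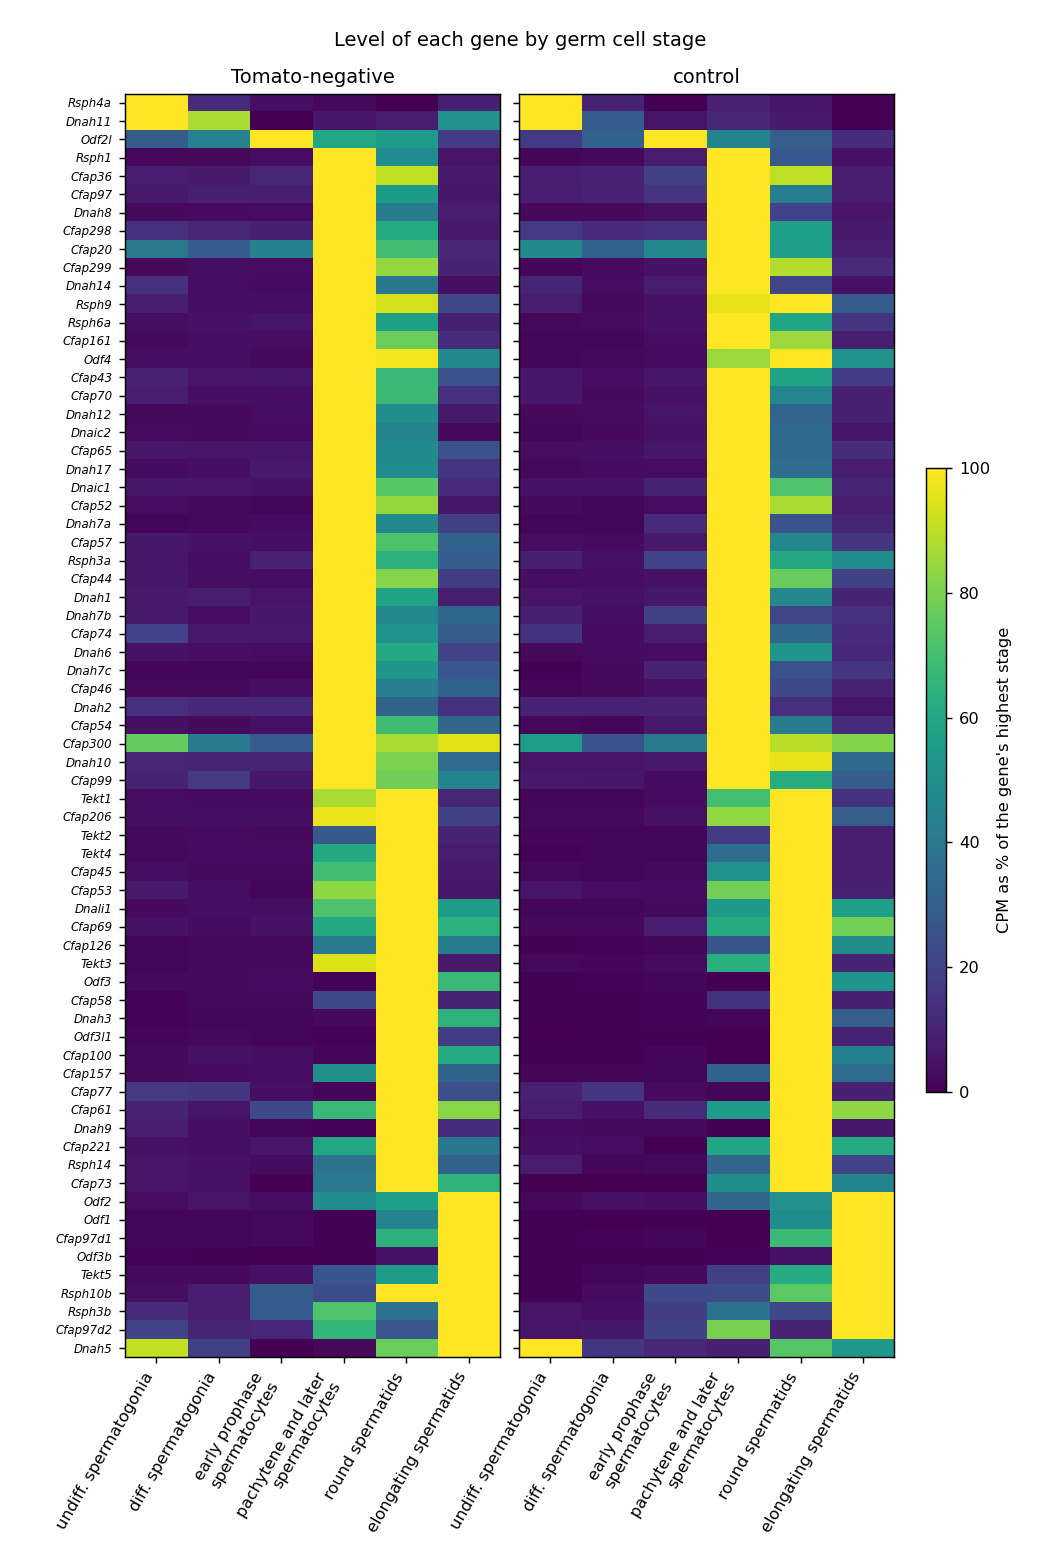
Level of each of the 69 genes in the 6 germ cell stages as a percent of its highest stage, in the Tomato-negative (left) and control (right) library, with genes ordered by their highest Tomato-negative stage. The block of 35 pachytene genes is followed by 22 round and 9 elongating spermatid genes, and nearly all rows are dark in spermatogonia.

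The levels of neighbouring stages ran into each other. The 35 genes highest in Tomato-negative pachytene cells kept a median of 61.6% of that level in round and 15.3% in elongating spermatids (46.4% and 10.3% for the 33 control genes). The genes highest in round spermatids already stood at a median of 45.7% (Tomato-negative) and 42.8% (control) of their highest level in pachytene cells. Before the pachytene stage the genes of these 2 groups were at medians of 2.94% to 6.12% of their highest level in Tomato-negative cells and of 1.71% to 6.68% in control cells. The somatic classes, given further on, had medians of 0% to 6.18%.

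A few genes gave much of the sum. *Rsph1*, a protein of the radial spoke head (chr17:31255019-31277383, GRCm38), was 20.5% of the UMIs of the 69 genes in Tomato-negative and 19.9% in control pachytene cells. *Odf2*, a core protein of the outer dense fibres that also sits at centrioles (chr2:29889221-29931746), was 47.2% of them in Tomato-negative and 54.5% in control elongating spermatids. In undifferentiated spermatogonia the leading gene was *Cfap20*, a protein of the junction inside each doublet, with 12.9% in the Tomato-negative and 14% in the control library. The highest levels of single genes ran over 3 orders, with medians of 114 CPM (Tomato-negative, 1.51 to 3423) and 145 CPM (control, 1.41 to 4542).

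The dynein heavy chains, the motors of the arms, were mostly pachytene genes: 11 of 15 were highest there in both libraries. *Dnah8* and *Dnah17* are the outer arm heavy chains of sperm. *Dnah8* had 29.9 CPM in early prophase, 887 CPM (877 to 897) in pachytene, 368 CPM in round and 67.2 CPM in elongating cells of the Tomato-negative library, and 66.4, 1475 (1463 to 1487), 299 and 75 CPM in the control library. *Dnah17* reached 137 CPM (133 to 141) in Tomato-negative and 187 CPM (183 to 192) in control pachytene cells. Their relatives in the outer arms of airway cilia, *Dnah5*, *Dnah9* and *Dnah11*, were far lower. *Dnah9* was highest in round spermatids at 17.9 CPM (15.2 to 21) and 23.8 CPM (20.8 to 27.1), and had 0.183 and 0.125 CPM in pachytene cells of the Tomato-negative and control library. *Dnah11* did not pass 2.83 CPM in any germ cell stage of either library, its highest level being in undifferentiated spermatogonia. *Dnah5* stayed under 1.6 CPM in germ cells, with 31 Tomato-negative and 26 control counts over all of them, so its stages are not resolved. Both genes were higher in a somatic class of the Tomato-negative library, from few counts. *Dnah5* had 7.95 CPM (13 counts) in vascular smooth muscle, against 1.53 CPM in its highest germ cell stage. *Dnah11* had 2.4 CPM (15 counts) in Sertoli cells, against 1.51 CPM.

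Among the other heavy chains, *Dnah14* followed *Dnah8* at 279 CPM in Tomato-negative and 326 CPM in control pachytene cells. In undifferentiated spermatogonia it had 38.4 CPM (34.2 to 42.9) and 33.7 CPM (28.4 to 39.7), above the 9.7 and 10.9 CPM of differentiating spermatogonia. *Dnah3*, an inner arm chain, was a spermatid gene: it had 2.74 CPM (2.2 to 3.37) in Tomato-negative and 2.61 CPM (2.13 to 3.16) in control pachytene cells, against 114 and 163 CPM in round spermatids. *Dnah7a*, *Dnah7b* and *Dnah7c* are close copies whose reads may be split or lost, and each is therefore uncertain, as are *Rsph3a* and *Rsph3b*. The intermediate chains *Dnaic1* and *Dnaic2*, which anchor outer arms, were highest in pachytene cells (126 and 146 CPM in Tomato-negative, 124 and 109 CPM in control cells). The light intermediate chain *Dnali1* of the inner arms was highest in round spermatids, at 312 CPM (301 to 324) and 408 CPM (395 to 421).

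The radial spoke genes were spread over 4 stages in each library. *Rsph1* had 76.6 CPM (70.6 to 82.9) in undifferentiated spermatogonia, 78.3 CPM in differentiating spermatogonia, 109 CPM in early prophase, 3423 CPM (3403 to 3443) in pachytene, 1648 CPM in round and 177 CPM in elongating cells of the Tomato-negative library. The control library gave 63.2, 66.7, 258, 3271 (3253 to 3289), 905 and 151 CPM. Pachytene cells were thus 2.08-fold (2.04 to 2.11) above round spermatids in the Tomato-negative and 3.62-fold (3.54 to 3.69) in the control library. The *Rsph1* levels of spermatogonia were not clear of the somatic ones. These were 283 CPM in Sertoli and 55 to 91.9 CPM in other Tomato-negative classes, and 80.4 to 170 CPM in control classes with at least 20 counts. Free RNA and transcripts made in spermatogonia were not told apart. *Rsph6a* and *Rsph4a* are paralogs, the first a spoke head protein of sperm and the second of airway cilia. *Rsph6a* reached 217 CPM (212 to 222) in Tomato-negative and 165 CPM (161 to 169) in control pachytene cells, where *Rsph4a* had 0.0913 and 0.477 CPM. *Rsph4a* was instead highest in undifferentiated spermatogonia, at 4.29 CPM (2.97 to 6) and 5.19 CPM (3.25 to 7.85), and this was 8.31-fold and 9.86-fold above differentiating spermatogonia. *Rsph14* was highest in round spermatids at 17.1 and 22.2 CPM. *Rsph10b*, whose reads can overlap those of *Pms2* on the same strand, had the same 33.2 CPM in round and elongating Tomato-negative cells.

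The *Cfap* genes have varied roles, from the central pair and the doublet lumen to the tethers of the inner arms. Of the 31, 17 were highest in pachytene cells, 12 in round and 2 in elongating spermatids in each library. *Cfap36* was the highest of them at 1593 CPM (1579 to 1607) in Tomato-negative and 1328 CPM (1317 to 1340) in control pachytene cells, and stayed at 1441 and 1199 CPM in round spermatids. *Cfap97* reached 1017 and 885 CPM and *Cfap298*, needed for dynein arm assembly, 871 and 674 CPM in pachytene cells. *Cfap206* and *Cfap45*, a protein inside the doublet wall, led the round spermatid genes with 654 and 588 CPM in Tomato-negative and 740 and 649 CPM in control cells. *Cfap97d1* was a spermatid gene, with 4.54 to 6.28 CPM before the pachytene stage, 1.86 CPM in pachytene, 197 CPM in round and 306 CPM (286 to 328) in elongating Tomato-negative cells, and 2.59 to 4.31, 0.929, 242 and 355 CPM (324 to 389) in the control library. *Cfap20* was already measured at 146, 106 and 160 CPM in the first 3 stages, against 364 CPM in pachytene Tomato-negative cells (140, 92.6, 138 and 297 CPM in control cells).

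All 5 tektins were highest in spermatids in both libraries, *Tekt1* to *Tekt4* in round and *Tekt5* in elongating cells. *Tekt2* had 179 CPM in pachytene and 643 CPM (626 to 661) in round Tomato-negative cells, and 143 and 835 CPM (817 to 854) in control cells. *Tekt1* was less sharp, with 573 CPM in pachytene against 657 CPM in round Tomato-negative cells (554 and 795 CPM in control cells). *Tekt5* reached 81.7 CPM (71.1 to 93.4) in Tomato-negative and 145 CPM (125 to 167) in control elongating spermatids.

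The *Odf* genes, named for the outer dense fibres, were mostly late. *Odf1*, a small heat shock family protein of the fibres, had 2.65 CPM in pachytene, 193 CPM in round and 430 CPM (405 to 456) in elongating Tomato-negative cells, and 0.653, 182 and 373 CPM (341 to 408) in control cells. *Odf2* was present earlier, with 1486 CPM in pachytene, 1745 CPM in round and 3041 CPM (2975 to 3109) in elongating Tomato-negative cells, against 1505, 2296 and 4542 CPM (4429 to 4658) in the control library. *Odf3b* was the most stage-bound of the 69 genes: its elongating level of 82.8 CPM (Tomato-negative) and 90 CPM (control) was 20.7-fold (14.4 to 30.7) and 20.2-fold (14.2 to 29.3) above round spermatids. *Odf3* and *Odf3l1* were round spermatid genes, at 224 and 104 CPM in Tomato-negative and 417 and 193 CPM in control cells. *Odf2l*, a centriolar protein, was the single gene highest in early prophase, at 98.9 CPM (91.1 to 107) in Tomato-negative and 191 CPM (180 to 202) in control cells.

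The control library held most of the pachytene class in a cluster of 402 cells, called earlier here because its next highest marker score was that of early prophase and *Piwil1* and *Hist1h1t* were among its leading genes, and a later one of 577 cells, whose leading genes included *Asb4*, *Nek2* and, of the 69 genes, *Dnaic2*. *Ccna1*, the cyclin of late meiotic prophase, had 369 CPM in the later and 28.8 CPM in the earlier cluster. Among the 63 genes with at least 20 counts over both clusters together, 9 were at least 2-fold higher in the later cluster (all genes 18.3%). At least 2-fold lower were 2 genes (all genes 30.7%), and the median ratio was 1.24 against 0.818 over all genes. The 69 genes had no part in the clustering but were counted in the same cells, so these ratios are a description. *Dnaic2*, already given as a leading gene of the later cluster, had 173 CPM there against 10.9 CPM. *Tekt4* was 10.6-fold (9.72 to 11.5) higher in the later cluster, at 383 against 36.2 CPM, and *Tekt3* 4.04-fold. *Rsph6a* was 2.73-fold higher in the later cluster, with 221 against 80.9 CPM. *Dnah8* went the other way, at 1190 against 1915 CPM, a ratio of 0.621 (0.611 to 0.632). *Dnah7c*, with its close copies, had a ratio of 0.473 and *Cfap97d2* of 0.451.

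What the genes share beyond their names was taken from the mouse annotation (GENCODE M21, GRCm38). None of the 69 lies on the X chromosome, against 3.61% of all genes tested in the Tomato-negative and 3.53% in the control library. Among genes highest in pachytene cells only 0.233% and 0.153% were X-linked, and among those highest in round spermatids 4.57% and 4.04%. Lengths and exon numbers are separate medians over the longest annotated transcript of each gene, whatever its type. That transcript had 1 exon for *Cfap45*, *Odf2l* and *Odf3b*. The 35 genes highest in Tomato-negative pachytene cells had medians of 4619 bases and 29 exons. For all genes of that stage these were 2253 bases and 4 exons. The 22 round spermatid genes had 1964 bases and 8 exons (all genes of that stage 1651 and 4). The 9 elongating spermatid genes had 2243 bases and 6 exons (all genes of that stage 1970 and 4). With the control stages the medians were 5487 bases and 33 exons, 1794 and 8, and 2023 and 5. All genes of these control stages had 2286 bases and 4 exons, 1751 and 4, and 1962 and 4. The *Dnah* genes, which encode very large proteins, are among the pachytene genes.

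Other genes of the pathway were counted in the same way. Of 18 further genes of the central pair, radial spokes and nexin links, such as *Spag6l*, *Spag17* and *Hydin*, 12 were highest in pachytene and 6 in round Tomato-negative cells (11 and 7 in control cells). Of 14 inner microtubule and doublet genes, 6 were highest in pachytene and 8 in round Tomato-negative cells (3 and 11 in control cells). Of the 15 measured genes of dynein arms and their assembly, 6 were highest in pachytene and 7 in round cells of each library. Of 12 genes of the fibrous sheath, annulus and mitochondrial sheath, such as *Akap4* and *Smcp*, 9 were highest in Tomato-negative elongating spermatids and 8 in control ones. Of 19 genes of intraflagellar transport, the trains that build cilia, 11 were highest in pachytene cells of each library, and their median level over the highest somatic class was 2.75-fold (Tomato-negative) and 3.31-fold (control).

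Transcription factors known from ciliated cells and spermatids had their own order. *Rfx2*, which binds X-boxes, was highest in pachytene cells with 104 CPM in the Tomato-negative and 99.2 CPM in the control library, against 16.8 and 20 CPM in early prophase. *Mybl1*, which encodes A-MYB, had 125 CPM in early prophase and 139 CPM in pachytene Tomato-negative cells and 195 and 174 CPM in control cells. *Foxj1*, the factor of motile cilia, had 13.2 and 6.32 CPM in pachytene and 66.1 and 66.7 CPM in round cells of the Tomato-negative and control library. *Crem*, a spermatid factor that binds cyclic AMP elements, was also highest in round spermatids, at 467 and 537 CPM. The list also held *Taf7l*, *Tbpl1*, *Sox30* and others, and 6 of 13 genes in the Tomato-negative and 6 of the 12 with enough counts in the control library were highest in round spermatids.

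Somatic cells gave the background. The highest germ cell stage stood at least 4-fold above the highest somatic class for 57 of 69 genes in the Tomato-negative library (all genes 16.2%) and for 49 in the control library (all genes 12.5%), where a class with fewer than 3 counts was set to 3. The median folds were at least 12.2 and 6.83, against 0.962 and 0.734 for all genes with the same limit. These are lower bounds, since that limit and not a measured level set the fold of 24 genes in the Tomato-negative and 50 in the control library (41% and 56.8% of all genes). It was highest, at 20.4 CPM, in the 38 control vascular smooth muscle cells, where 36 of the 69 genes had no count, so the libraries' folds are not compared. The 69 genes held 0.0575% to 0.163% of the UMIs of the Tomato-negative somatic classes and 0.0861% to 0.132% of the control ones. Sertoli cells, found in number (632 cells) only in the Tomato-negative library, had the highest share.

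The somatic levels were set beside those of germ cell markers. In Tomato-negative Sertoli cells the 69 genes stood at a median of 6.18% of their highest germ cell level. There the 14 markers of pachytene cells stood at 7.07% and the 11 markers of elongating spermatids at 1.94%. The 13 markers of early prophase stood at 1.14% and the 14 of round spermatids at 3.26%. In the other Tomato-negative somatic classes the medians were 1.99% to 3.08% for the 69 genes and 2.14% to 4.75% for pachytene markers, and in the control classes 0% to 4.26% and 3.96% to 8.13%. Medians of the other markers in those Tomato-negative classes were 0.312% to 0.6% (early prophase), 1.44% to 2.63% (round) and 0.375% to 0.616% (elongating). In the control classes they were 0% to 2.11%, 0% to 1.87% and 0.243% to 0.773%. Free RNA from broken germ cells, doublets and transcripts made in the somatic cells were not told apart, and their part in these levels was not tested. *Rsph1* was highest among the somatic values, at 283 CPM (270 to 297) in Tomato-negative Sertoli cells, which is 8.28% of its pachytene level. *Odf2* had 234 CPM there, 7.69% of its elongating level, and *Cfap36* 171 CPM. In the control library *Cfap36* had 191 CPM (127 to 276) in vascular smooth muscle, from 28 counts, and *Odf2*, *Rsph1* and *Dnah8* had 181, 170 and 108 CPM in immune cells.

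**Figure D4:**
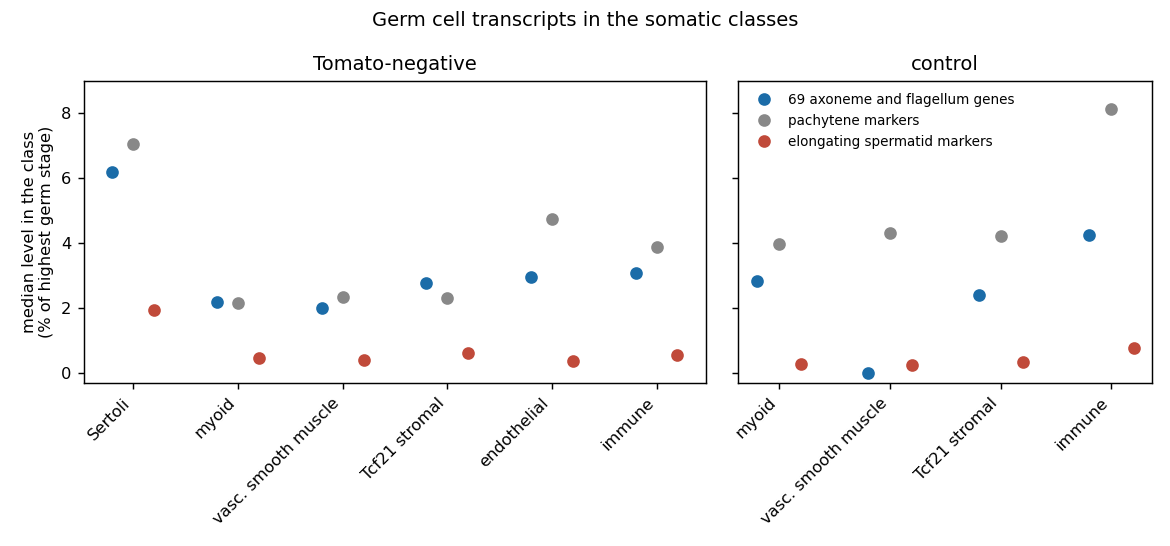
Median level in each somatic class as a percent of the highest germ cell stage, for the 69 genes (blue), 14 markers of pachytene cells (grey) and 11 markers of elongating spermatids (red), in the Tomato-negative (left) and control (right) library. In Sertoli cells the 69 genes stand at 6.18% beside 7.07% for the pachytene markers.

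In 7 cases an axoneme or flagellum gene with at least 20 counts in a somatic class stood above every pachytene marker there, and 5 of these were *Cfap20*. The axoneme and flagellum genes with at least 20 counts ranged from 1 in control vascular smooth muscle to 55 in Tomato-negative Sertoli cells. Such cases were not counted over all genes, so they are not set against genes at large. *Cfap20* had 178 CPM (168 to 189) in Tomato-negative Sertoli cells, 49.1% of its pachytene level, where the highest marker had 46.9%. It also stood above the markers in Tomato-negative vascular smooth muscle (38.5 CPM) and Tcf21 stromal cells (84.7 CPM) and in control myoid (81.4 CPM) and Tcf21 stromal cells (80 CPM). *Rsph9* had 55 CPM in Tomato-negative vascular smooth muscle from 90 counts, 20.6% of its pachytene level (highest marker 9.84%), and 40.8 CPM from 6 counts in that control class. *Cfap100* had 20.5 CPM in Tomato-negative myoid cells, 23.7% of its round spermatid level, from 30 counts (highest marker 19.5%). Multiciliated epithelium of the ducts also makes axonemes. Its list of 8 markers, 7 of them in the control table, summed to 6.34 to 224 CPM in the Tomato-negative and 0 to 20.9 CPM in the control somatic classes. The 224 CPM were those of Tcf21 stromal cells, where the epithelial keratins *Krt18* and *Krt8* gave most of the 148 counts, and their part in the levels of that class was not tested. *Tmem212*, not listed in the control table, had 0 counts in every Tomato-negative somatic class, and *Sec14l3* had 0 in every somatic class of both libraries.

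The study compared differentiating spermatogonia between cKO and control mice. No pachytene cells or round spermatids were named among the 7018 kept cKO cells, against 946 and 406 in the control library clustered in the same way. Elongating spermatids were named for 38 cKO and 0 control cells. Clustered with the Tomato-negative cells, the control library had 247 round and 157 elongating spermatids, so its 406 round cells may hold both. The stages at which most of the 69 genes were high could therefore not be compared. In differentiating spermatogonia (1220 cKO and 1972 control cells), 62 of the 69 genes had at least 20 counts over both libraries. Of these, 28 were at least 2-fold lower in cKO cells (all genes 18.6%) and 6 at least 2-fold higher (all genes 19.9%), with a median log2 ratio of -0.85 against -0.08 over all genes. Intervals lay below no change for 35 and above it for 12 genes, which was not counted over all genes.

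Other measures moved with this difference. *Prm1*, *Prm2*, *Tnp1* and *Tnp2* together had 11.9 CPM in cKO and 244 CPM in control differentiating spermatogonia. The same 4 genes had 6.04 CPM in cKO and 308 CPM in control myoid cells. There 31 of 39 genes were at least 2-fold lower in cKO (986 of 13902 over all genes). After free RNA, scaled by these 4 genes, was subtracted from both libraries, 38 genes passed and 1 of them was at least 2-fold lower in cKO. This correction was added after the values had been seen. The cells of the class also differed, since all 11 markers of undifferentiated spermatogonia were at least 2-fold higher in the cKO class, with a median log2 ratio of 4.49, and *Kit* was lower by a log2 ratio of -2.52. The part of these differences in the result was not tested further.

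Among single genes, *Rsph1* had 172 counts, 7.4 CPM, in cKO and 971 counts, 69 CPM, in control differentiating spermatogonia, a ratio of 0.107 (0.0907 to 0.126). After the subtraction of free RNA, its counts were 138 in cKO and 0 in control cells. The subtraction sets negative results to 0, so the control value is not a measured absence and these counts are not compared. *Cfap97d1* had 0 cKO and 41 control counts, and was at least 22.5-fold lower in cKO against a limit of 3 counts for the class. *Odf3* and *Odf4* each had 1 cKO and 50 control counts, a log2 ratio of -5.80. The genes highest in cKO over control were *Rsph4a* with 4.3 against 0.497 CPM (100 and 7 counts), *Dnah5* with 24 and 3 counts, and *Cfap74* with 11.3 against 3.13 CPM. *Rsph4a*, given above as a gene of undifferentiated spermatogonia, had a log2 ratio of 3.02, with an interval of the ratio of 4.05 to 22.1.

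The neighbouring classes gave the same side. In undifferentiated spermatogonia (845 cKO and 366 control cells), 13 of 44 genes were at least 2-fold lower in cKO (all genes 5.01%) and none was at least 2-fold higher (all genes 2.90%). There *Prm1*, *Prm2*, *Tnp1* and *Tnp2* had 20.3 CPM in cKO and 195 CPM in control cells. In early prophase spermatocytes (145 cKO and 1304 control cells), 42 of 51 genes were at least 2-fold lower (all genes 15.9%), and 38 were so when every count under 3 was set to 3. The median log2 ratio was -3.18, or -1.63 with that limit, since 21 genes had no count in cKO. The 4 haploid genes had 12.1 CPM in cKO and 400 CPM in control early prophase cells. *Odf2l*, highest at this stage, had 83.2 CPM (67.4 to 102) in cKO and 201 CPM (189 to 213) in control cells, a ratio of 0.415 (0.333 to 0.511), and *Rsph1* 14.7 and 284 CPM.

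**Figure D5:**
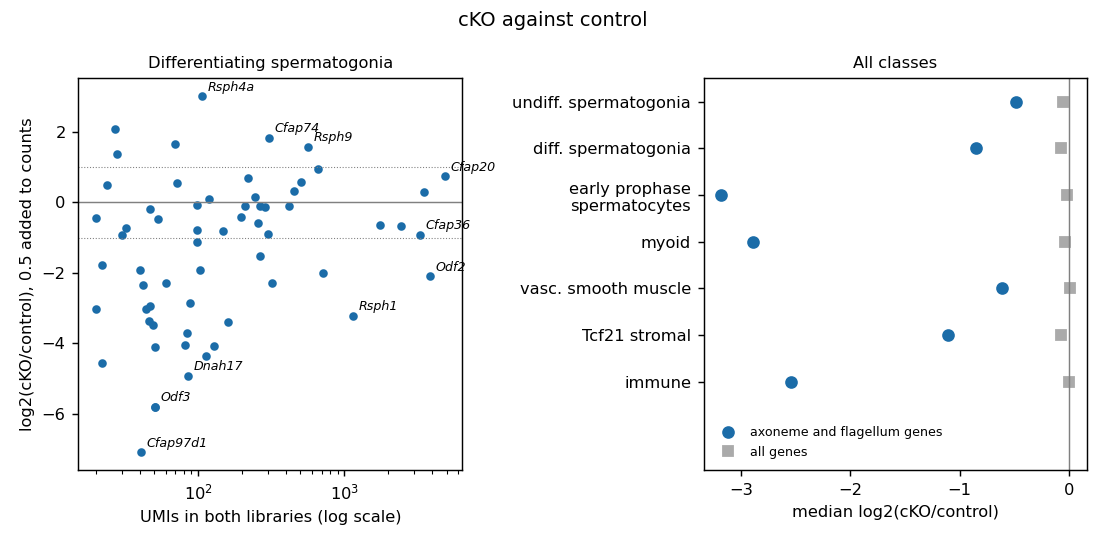
Left, log2 ratio of cKO over control in differentiating spermatogonia against the UMIs of both libraries (log scale), 1 point for each of 62 genes, with dotted lines at 2-fold. Right, median log2 ratio of the 69 genes' passing members (blue circles) and of all passing genes (grey squares) in each class: the blue points lie below 0 in every class, somatic classes included, from -0.48 in undifferentiated spermatogonia to -3.18 in early prophase cells.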

How the data were processed

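The authors deposited unnormalized UMI counts, made with Cell Ranger 2.1.1 on GRCm38. From the merged table of the Tomato-depleted sample, cells with barcodes ending in _1 were taken (7626). Its other cells were left out: the control cells, which repeat the control table with 0 differing values, and 149 with cKO barcodes. There were 6264 control cells and 7252 cKO cells. Libraries shared 9 to 15 barcodes. Cells were retained between 200 and 7500 detected genes if mitochondrial UMIs did not exceed 10%. With no upper limit, the pachytene class held 1402 Tomato-negative cells in place of 513 and 1126 control cells in place of 996. The study states a limit of 3500 unique counts. Read here as detected genes and tried as an alternative, it left no pachytene class. Total depth of kept cells was 88079827 UMIs (Tomato-negative), 66972657 (cKO) and 79288982 (control). Doublets called by Scrublet (3.42% to 4.87%) were left in.

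Cells were clustered in Seurat 5.3.0 (R 4.3.3; the authors used Seurat 3.1) on 2000 variable genes without the 69 genes, with 15 components, and germ cells again with 25, at resolution 0.3. Tomato-negative and control cells were clustered together, cKO and control each alone for their comparison. Clusters took the class of the highest marker score. A minimum score of 0.25, set after the clusters had been seen, left 128 Tomato-negative, 78 control and, in the cKO clustering, 452 cKO and 66 control cells unnamed.

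Counts were summed per class and library, with exact Poisson intervals for levels and exact conditional binomial intervals for ratios. PCR copies were removed by UMI, and intervals cover counting error only. Classes needed 30 cells, genes 20 counts, and 0.5 was added to counts in the cKO ratios. The choice of the highest stage and the intervals of ratios were tested on simulated Poisson counts. Clustering, class names and the subtraction of free RNA were not. The genes, gene lists and limits were chosen with earlier results of these data known. Genes were named by rule: per stage and symbol family the 2 highest, the 8 with the highest somatic level, those whose stages differed by more than 1 step, the 3 lowest and 3 highest in cKO over control, and *Rsph1*, which the study names. Others named (*Cfap100*, *Dnah17*, *Odf3b*, *Rsph6a*, *Tekt3*, *Tekt4*, those of the promoter section and the close copies) were chosen after their values were seen.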

Additional observations from a re-analysis of the deposited data

Results flagged for a closer look

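Counts outside the comparisons were few. The antisense transcript *Dnah2os*, left out by name, had 5 counts over the control germ cells. *Odf3l2* matched the rule but was listed only in the cKO table, with 4 counts. The 149 cells of the merged table that carry barcodes of the cKO library held 585 counts of the 69 genes, 0.0305% of their 1919832 UMIs, a smaller share than in any class of the Tomato-negative or control library. Each was listed because it lies above the 3 counts that a count of 0 allows. With 1 library per group, no test for a sample that stands apart was possible.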

How the results depend on the processing

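With the study's limit of 3500, read as detected genes per cell, no pachytene class was left, and by that construction the numbers highest in spermatocytes were 2 (Tomato-negative) and 1 (control) and those highest in spermatids 56 and 59. No differentiating class was named in cKO cells under that limit. The count of genes at least 4-fold above every Tomato-negative somatic class was 24 with no upper limit, 25 without doublets and 24 with each library clustered alone. In these 3 settings a Leydig class of 30 cells was named, whose limit of 3 counts is 45.3 CPM, and without that class the counts were 58, 57 and 57. Thinning to 1000 UMIs gave 30 (Tomato-negative) and 16 (control). Summing all somatic classes, chosen after seeing the data, gave 66 and 65. The share of UMIs in pachytene cells was 1.66% and 1.65% (Tomato-negative and control) with no upper limit, 1.68% and 1.65% without doublets, 1.68% and 1.65% with each library alone, 1.65% in control cells at resolution 0.6, 1.66% in control cells with stages per cell, 1.64% and 1.56% with cells weighted equally, 1.62% and 1.58% thinned, and 1.65% and 1.62% with free RNA subtracted. In the other stages it ranged up to 1.66% (round) and 1.36% (elongating) and down to 0.0488% (control differentiating spermatogonia). The number lower in cKO, 28 of 62, was 9 of the 27 genes that passed after thinning and 9 of 31 with a minimum of 100 counts. It was 1 of 38 with free RNA subtracted, where negative results were set to 0. The cause of changes with no construction named here was not tested. The highest stage moved most often for *Cfap97d2*, *Dnah5*, *Rsph10b*, *Cfap300*, *Cfap100*, *Dnah10* and *Odf4*. No paired analysis was possible because each group has 1 library.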
